A study of Mus musculus with 8 samples.

Results

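The ephrin, netrin and Slit guidance genes are 37 genes of the array that encode secreted or membrane-bound guidance cues and the receptors that read them. They were taken by platform symbol, using only probe sets that carry that symbol alone, and comprised 9 Eph A receptors, 5 Eph B receptors, 5 A-type and 3 B-type ephrins, 3 Slits, 4 Robo receptors, 3 netrins and 5 netrin receptors (Dcc and Unc5a to Unc5d). They made up 37 of the 20352 genes measured and 678 of the 241576 probe sets, with 5 to 38 probe sets and a median of 18 per gene. RNA came from whole cerebellum of 28-day-old mice, 4 animals with the genotype label Cic-L-null and 4 wild-type animals, with 1 array each. All 8 shared a mixed Swiss Webster (CD-1) background. Cic encodes Capicua, a DNA-binding transcriptional repressor that is known to occur in a long and a short form. The labels do not say how the allele was made or name a Cre line or transgene, and the comparison addresses how cerebellar gene expression differs when it is altered.

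Eph receptors are receptor tyrosine kinases whose ligands, the ephrins, are themselves tied to the membrane of a neighbouring cell. A-type ephrins are held by a lipid anchor and B-type ephrins span the membrane, so contact can signal into both cells. Slits are secreted proteins that repel growing axons and migrating neurons through Robo receptors. Netrins are laminin-like cues that attract through Dcc and repel through Unc5 receptors. In the cerebellum, netrin signalling through Unc5c is known for keeping granule cell precursors within its border, Unc5b and Robo4 are known from endothelial cells, and EphB receptors act at excitatory synapses and their dendritic spines.

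Cic, the altered gene, had gene values of 7.50, 7.48, 7.62 and 7.54 in the Cic-L-null cerebella, against 8.74, 8.57, 8.63 and 9.19 in the wild-type cerebella. The gene value is the mean log2 RMA value of a gene's probe sets, and every difference below is Cic-L-null minus wild-type on this log2 scale. Gene values correlated between 0.9913 and 0.9954 over all pairs of arrays. Among cerebellar markers, the granule cell gene Gabra6 lay at 12.41 ± 0.040 and 12.45 ± 0.093 and the Purkinje cell gene Calb1 at 11.61 ± 0.0082 and 11.61 ± 0.099 in Cic-L-null and wild-type (SD, n = 4 each). Both are examples from their lists. Of the 7 measured Purkinje cell markers Pcp2 was the dimmest, at 8.64 in wild-type. Of the 8 granule cell markers 4 were higher and 4 lower. Groups did not overlap for 1 of the 8, Slc17a7 (0.13, SE 0.059), against 5.94% of all genes. Y-linked genes were high on 3 Cic-L-null and 2 wild-type arrays. The small number of arrays limits the precision.

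Of the 37 guidance genes, limma called 1 at a Benjamini-Hochberg adjusted p under 0.05, adjusted over the 20352 genes. That gene was Ephb3, which rose in the Cic-L-null cerebellum, and 0.138% of all genes were called. At an unadjusted p under 0.05 there were 7 members (18.9%), 6 higher and 1 lower, where the share of all genes was 9.26% (4.56% higher and 4.70% lower). The 4 Cic-L-null arrays lay on 1 side of all 4 wild-type arrays for 6 members (16.2%), 5 higher and 1 lower, where the share of all genes was 5.94% (3.02% higher and 2.91% lower). The 7 were Ephb3, Robo1, Robo2, Epha3, Ephb2, Efna1 and Unc5c. Of these, 6 encode receptors and 1 encodes a ligand, where 23 of the 37 members encode receptors. Among the 23 receptors the groups did not overlap for 5 (21.7%), and among the 14 ligands for 1 (7.14%), against 5.94% of all genes. The family as a whole showed no common shift, with 21 differences above 0 and 16 below (56.8% above 0, against 47.0% of all genes) and a median of 0.0069, against -0.0071 over all genes. With whole tissue, fewer cells of a type and less RNA per cell cannot be told apart.

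**Figure D1:**
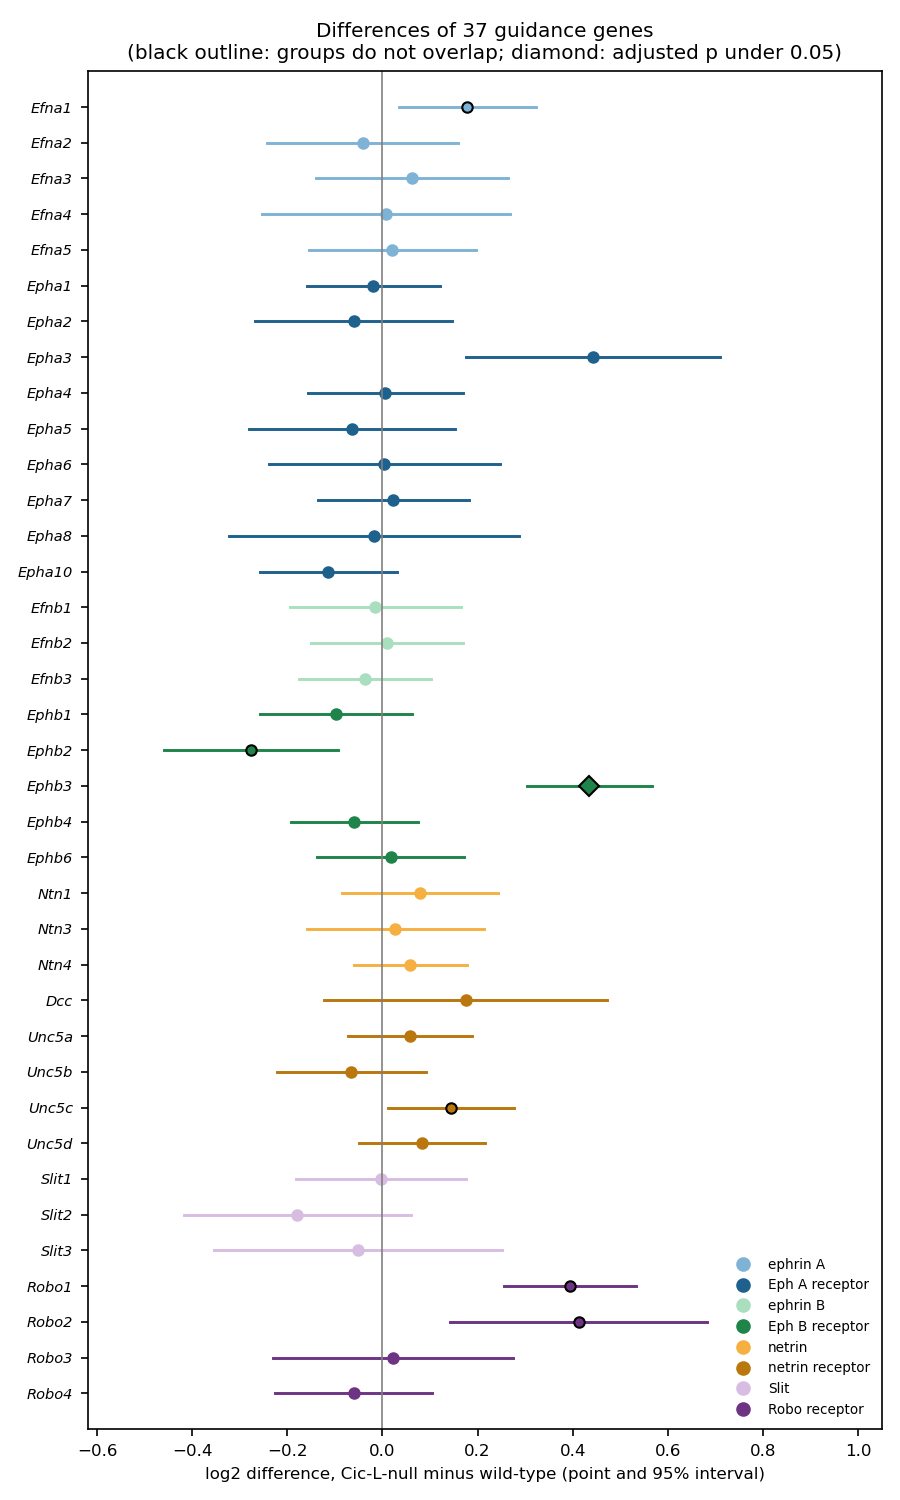
Each row is 1 guidance gene, grouped by family with ligands above their receptors, and the horizontal axis is the log2 difference, Cic-L-null minus wild-type. Points are differences and lines their 95% intervals from limma. Ephb3 (diamond, 0.44) is the gene past the threshold, Epha3, Robo2 and Robo1 lie at 0.44, 0.41 and 0.39, Ephb2 lies at -0.28, and most other genes lie close to 0.

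Among the Eph B receptors, Ephb3 and Ephb2 differed in opposite directions. Ephb3, a receptor for B-type ephrins, had gene values of 7.002, 7.007, 6.878 and 6.975 in the Cic-L-null arrays, against 6.598, 6.442, 6.519 and 6.561 in the wild-type arrays. The lowest Cic-L-null array lay 0.28 above the highest wild-type array. Its mean was 6.97 ± 0.060 in Cic-L-null and 6.53 ± 0.067 in wild-type (SD, n = 4 each), which is a 1.35-fold rise (log2 0.44, SE 0.060) with a limma adjusted p of 0.0258, and higher in 4 of 4 arrays. Of its 17 probe sets, 14 were higher and 3 lower, with a median difference of 0.54. Groups did not overlap for 3 of the 17, all higher in Cic-L-null. For 10 of the 17 the wild-type mean was above the dim limit defined below. Probe set 10434561 had the largest difference, 0.96 (SE 0.19). The call was lost without any 1 of Cic-L-null replicates 1, 2 and 4 or wild-type replicates 2, 3 and 4 (adjusted p between 0.0818 and 0.101), with the median of the probe sets (0.52, adjusted p = 0.316) and with only bright probe sets (0.53, adjusted p = 0.101).

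Ephb2, the receptor best known with Ephb1 for clustering glutamate receptors at synapses, had gene values of 9.34, 9.11, 9.32 and 9.07 in Cic-L-null, against 9.55, 9.45, 9.36 and 9.60 in wild-type. All 4 Cic-L-null arrays were below all 4 wild-type arrays, though the nearest pair were only 0.02 apart. The difference was -0.28 (SE 0.083) with an adjusted p of 0.291 with limma and p = 0.0286 in an exact two-sided permutation test, the smallest that 4 against 4 arrays can give. All 19 of its probe sets were lower in Cic-L-null, 3 of them with groups that did not overlap, and the median was -0.26. The other Eph B receptors showed no such difference. Ephb1 differed by -0.098 (SE 0.072), with 14 of 18 probe sets lower. Ephb4, known as the venous partner of Efnb2 in blood vessels, differed by -0.059 (SE 0.060). Ephb6, a receptor whose kinase domain is inactive, differed by 0.017 (SE 0.070), although its probe set 10537670 differed by 0.69 (SE 0.14, adjusted p = 0.391 over all probe sets).

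**Figure D2:**
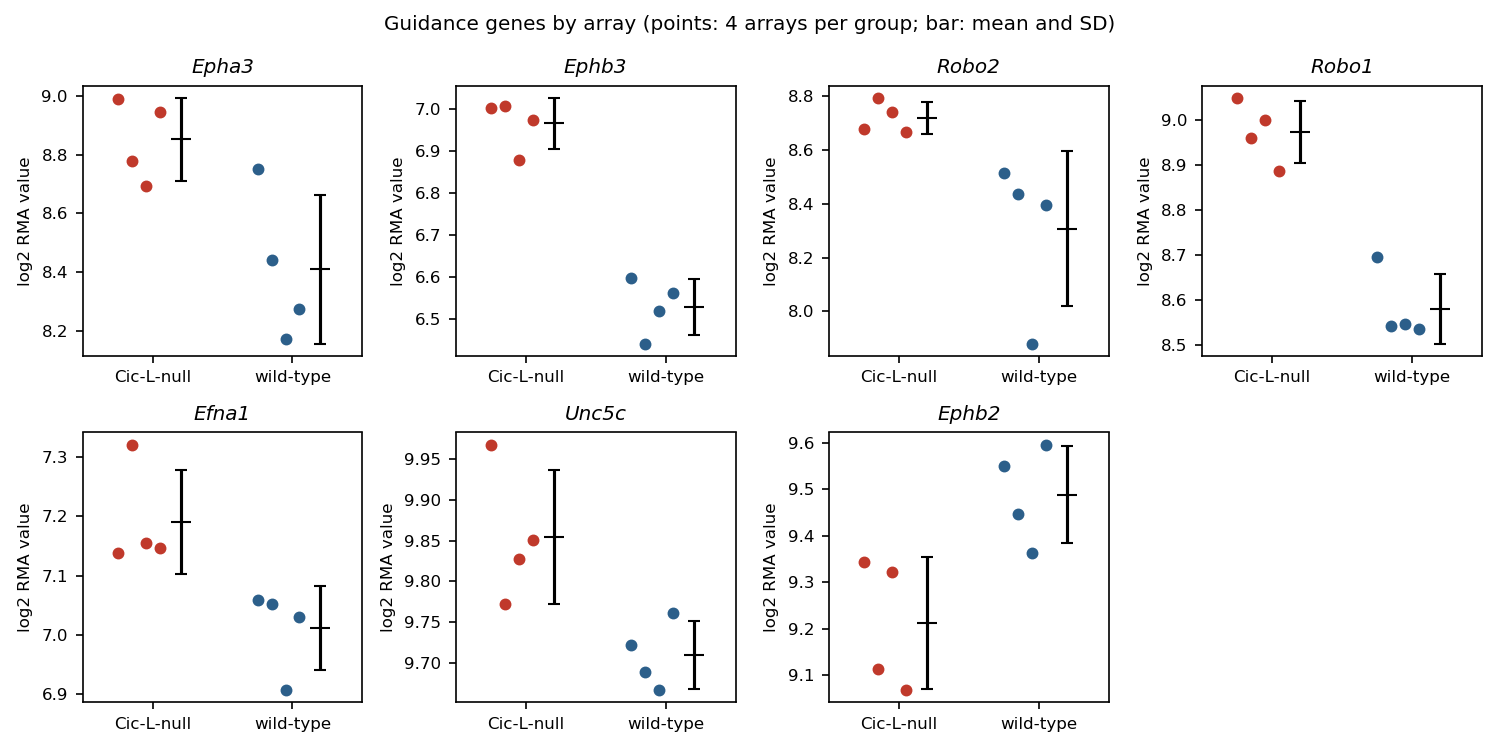
Each panel shows 1 gene, with the log2 RMA gene value of the 4 Cic-L-null arrays in red on the left and of the 4 wild-type arrays in blue on the right, and bars for mean and SD (axes do not start at 0 and differ between panels). Ephb3 and Robo1 have a clear gap between the groups, wild-type replicate 3 of Robo2 lies at 7.88 below the other wild-type arrays, and Cic-L-null replicate 3 of Epha3 lies below wild-type replicate 1.

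Capicua is known to bind the octamers TGAATGAA and TGAATGGA, so the promoter windows of the members were searched for both on either strand. RefSeq windows (GRCm38.p6, 250 bases before to 50 after an annotated start) were given for 32 of the 37 genes, in 37 windows. An octamer was found in 1 of the 37 windows (2.7%), against 811 of 32851 windows of all genes (2.47%). None of the 10 windows of the 7 genes above held either octamer. The match lay in the window of Epha2, 15 bases before the start, and Epha2 differed by -0.060 (SE 0.094). The 250 bases before the start are shown for the gene past the threshold, for the gene next to it in adjusted p and for the gene with the match. Capitals mark the octamer.
Ephb3 (chr16:21204545-21204794, + strand): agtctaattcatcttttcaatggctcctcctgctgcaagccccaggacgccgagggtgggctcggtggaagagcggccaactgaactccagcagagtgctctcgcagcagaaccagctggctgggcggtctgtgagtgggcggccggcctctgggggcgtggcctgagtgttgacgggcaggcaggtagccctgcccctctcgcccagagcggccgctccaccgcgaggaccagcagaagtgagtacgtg
Robo1 (chr16:72662899-72663148, + strand): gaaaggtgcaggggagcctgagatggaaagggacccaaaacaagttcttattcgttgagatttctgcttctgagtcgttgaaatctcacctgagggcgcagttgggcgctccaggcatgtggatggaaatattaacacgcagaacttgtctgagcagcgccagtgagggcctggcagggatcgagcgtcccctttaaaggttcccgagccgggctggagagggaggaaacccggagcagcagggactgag
Epha2 (chr4:141300971-141301220, + strand): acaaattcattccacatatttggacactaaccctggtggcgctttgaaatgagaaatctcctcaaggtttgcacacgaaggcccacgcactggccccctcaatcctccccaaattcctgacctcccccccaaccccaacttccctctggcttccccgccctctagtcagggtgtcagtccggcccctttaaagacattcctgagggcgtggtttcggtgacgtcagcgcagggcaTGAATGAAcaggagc

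Among the 9 Eph A receptors, Epha3 stood apart. Epha3, which binds A-type ephrins and has its highest affinity for ephrin-A5, had gene values of 8.99, 8.78, 8.69 and 8.95 in Cic-L-null, against 8.75, 8.44, 8.17 and 8.28 in wild-type. The groups overlapped through Cic-L-null replicate 3 and wild-type replicate 1. The means were 8.85 ± 0.14 and 8.41 ± 0.25 (SD, n = 4 each), 0.44 apart (SE 0.12), with a limma adjusted p of 0.247 and p = 0.0571 in the exact permutation test. All 20 of its probe sets were higher in Cic-L-null, between 0.19 and 0.75, and 3 did not overlap between the groups. Without wild-type replicate 1, the array whose label alone names a Trizol and RNeasy extraction, the difference was 0.56 with an adjusted p of 0.0730.

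The other 8 Eph A receptors lay between -0.11 and 0.023. Epha4, a receptor of broad specificity that binds ephrins of both types, differed by 0.0063 (SE 0.073), with gene values of 8.44, 8.29, 8.29 and 8.33 in Cic-L-null and 8.49, 8.37, 8.23 and 8.23 in wild-type. Epha7, with the highest wild-type value of the Eph A group, had 8.66, 8.65, 8.66 and 8.69 in Cic-L-null, against 8.68, 8.79, 8.46 and 8.64 in wild-type. These groups overlapped fully, and the interval of its difference was -0.14 to 0.18. Epha10, whose kinase is thought to be inactive, differed by -0.11 (SE 0.065), Epha5 by -0.064 (SE 0.098), Epha2 by -0.060 (SE 0.094), Epha8 by -0.018 (SE 0.14), Epha1 by -0.019 (SE 0.063) and Epha6 by 0.0038 (SE 0.11). The Epha10 difference was -0.15 without wild-type replicate 1 (unadjusted p = 0.0343, adjusted p = 0.334 with limma) and -0.045 with the median of the probe sets.

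Of the 8 ephrins, Efna1 was the only member with groups that did not overlap. Efna1, an A-type ephrin that is also made by blood vessels, had gene values of 7.14, 7.32, 7.15 and 7.15 in Cic-L-null, against 7.06, 7.05, 6.91 and 7.03 in wild-type. Cic-L-null replicates 1, 3 and 4 were nearly equal and replicate 2 lay above them. The difference was 0.18 (SE 0.065, adjusted p = 0.405 with limma), with 7 of 8 probe sets higher and none of the 8 without overlap. It was 0.095 without probe set 10499542, which differed by 0.76 (SE 0.35), an alternative added after its value was seen. The other A-type ephrins, Efna2, Efna3, Efna4 and Efna5, differed by -0.042 (SE 0.090), 0.062 (SE 0.091), 0.0069 (SE 0.12) and 0.021 (SE 0.079). Efna2, with the highest wild-type value of these, had 7.63, 7.98, 7.81 and 7.61 in Cic-L-null, against 7.93, 7.78, 7.71 and 7.78 in wild-type.

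The B-type ephrins were nearly level between the genotypes. Efnb2, the arterial ephrin that also acts at synapses, had 8.49, 8.48, 8.41 and 8.31 in Cic-L-null, against 8.50, 8.39, 8.27 and 8.50 in wild-type, a difference of 0.0092 with a 95% interval of -0.15 to 0.17. Efnb1, the X-linked member, and Efnb3 differed by -0.015 (SE 0.081) and -0.036 (SE 0.062). The ephrin B ligands of Ephb3 and Ephb2 thus gave no difference beyond the spread of the arrays.

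Robo1 and Robo2, the main neuronal Slit receptors, were both higher in the mutants, whereas the Slits were not. Robo1 had gene values of 9.049, 8.960, 9.002 and 8.887 in Cic-L-null, against 8.695, 8.543, 8.546 and 8.536 in wild-type. All 4 Cic-L-null arrays were above all wild-type arrays, among which replicate 1 was the highest. The means were 8.97 ± 0.069 and 8.58 ± 0.077 (SD, n = 4 each), a difference of 0.39 (SE 0.063) or 1.31-fold, with an adjusted p of 0.0531 with limma, just above the threshold. Of its 29 probe sets, 28 were higher and 12 did not overlap between the groups, the largest number for any member. Probe set 10436538, picked for its adjusted p of 0.298, the smallest of any member probe set over all probe sets, differed by 0.77 (SE 0.12). Robo1 passed in 6 of 18 alternative settings, with adjusted p from 0.00886 (trended and robust variance) to 0.0407 (arrays centred on their median). Leaving out wild-type replicate 1 was 1 of the 6 (0.43, adjusted p = 0.0375).

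Robo2 had gene values of 8.68, 8.79, 8.74 and 8.67 in Cic-L-null, against 8.51, 8.44, 7.88 and 8.40 in wild-type. The Cic-L-null arrays were again all above the wild-type arrays, and wild-type replicate 3 was far below the rest of its group. The difference was 0.41 (SE 0.12, adjusted p = 0.285 with limma), and it was 0.27 (adjusted p = 0.209) without wild-type replicate 3. Probe set 10440362 was at 4.88 in that array, against 10.04, 9.88 and 10.04 in the other wild-type arrays. Without that probe set the difference was 0.38 (adjusted p = 0.212), an alternative chosen after its values were seen. Of the 31 probe sets, 29 were higher and 10 did not overlap between the groups, all 10 of them higher in Cic-L-null.

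Robo3, which steers commissural axons across the midline, and Robo4, the endothelial member, differed by 0.022 (SE 0.11) and -0.061 (SE 0.075). Robo4 had 6.888, 7.089, 7.007 and 6.873 in Cic-L-null, against 7.004, 6.891, 7.147 and 7.058 in wild-type, and the groups overlapped. Slit1, Slit2 and Slit3 differed by -0.0035 (SE 0.081), -0.18 (SE 0.11) and -0.051 (SE 0.14). Slit2 had 6.85, 6.64, 6.44 and 6.67 in Cic-L-null, against 6.77, 7.07, 6.87 and 6.62 in wild-type, with 25 of 36 probe sets lower and an interval of -0.42 to 0.060. Its difference was -0.11 without Cic-L-null replicate 3, -0.10 without wild-type replicate 2 and -0.096 with only probe sets above the dim limit. It was -0.25 without wild-type replicate 4 (unadjusted p = 0.0436, adjusted p = 0.681 with limma). With the median of the probe sets it was -0.21 (unadjusted p = 0.0459, adjusted p = 0.603 with limma). Slit3, with the highest wild-type value of the Slits, had 8.23, 8.19, 8.65 and 8.06 in Cic-L-null, against 8.07, 8.28, 8.37 and 8.60 in wild-type. The arrays of both groups were thus spread widely and intermixed.

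**Figure D3:**
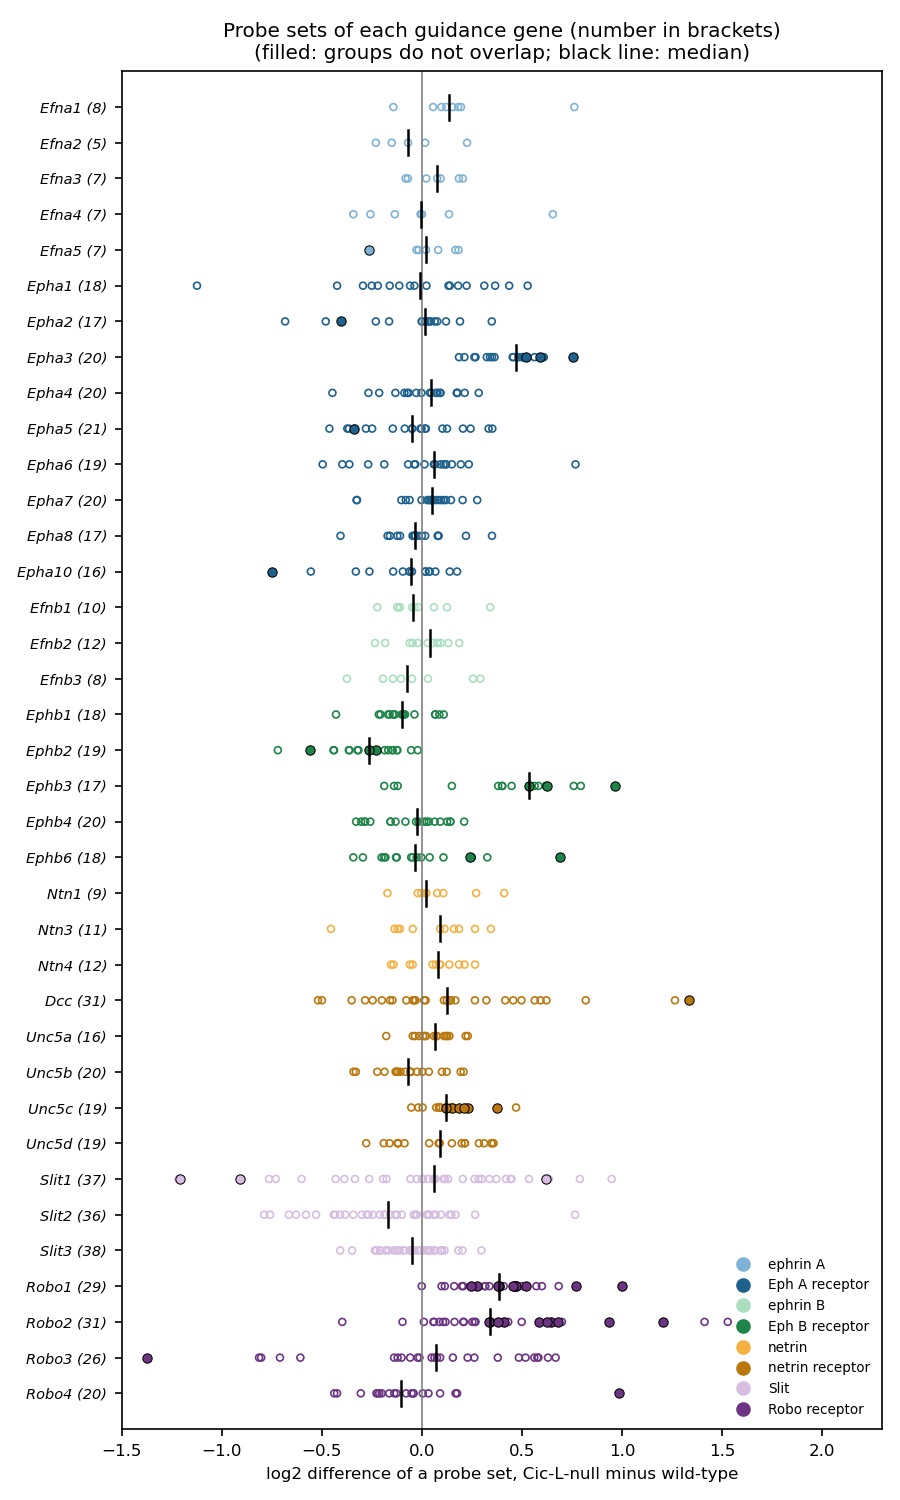
Each row is 1 guidance gene with its number of probe sets in brackets, each circle is the log2 difference of 1 probe set (Cic-L-null minus wild-type), filled circles are probe sets whose groups do not overlap, and black lines are medians. Robo1, Robo2 and Epha3 have nearly all circles right of 0 and Ephb2 has all circles left of 0, whereas Slit1 and Robo3 spread to both sides.

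Of the netrin receptors, Unc5c was higher in all Cic-L-null arrays by a small amount. Its gene values were 9.97, 9.77, 9.83 and 9.85 in Cic-L-null, against 9.72, 9.69, 9.67 and 9.76 in wild-type, with only 0.01 between the nearest arrays of the groups. Unc5c was 1.11-fold higher (log2 0.14, SE 0.060) with a limma adjusted p of 0.488, with 17 of 19 probe sets higher and 6 without overlap. Unc5a differed by 0.058 (SE 0.059), Unc5b by -0.066 (SE 0.070) and Unc5d by 0.082 (SE 0.060). Dcc had 6.97, 6.88, 6.46 and 7.05 in Cic-L-null, against 6.51, 6.95, 6.68 and 6.53 in wild-type, and its difference of 0.17 (SE 0.13) lay within the spread of either group. It was 0.30 (unadjusted p = 0.0198, adjusted p = 0.406 with limma) without Cic-L-null replicate 3, 0.10 on leaving out Cic-L-null replicate 4, 0.27 on leaving out wild-type replicate 2 and 0.088 with only probe sets above the dim limit.

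The netrins themselves differed little. Ntn1, the secreted netrin read by Dcc and the Unc5 receptors, had 9.10, 9.20, 9.04 and 9.12 in Cic-L-null, against 9.22, 8.99, 9.02 and 8.91 in wild-type, a difference of 0.079 (SE 0.074). The Ntn1 difference was 0.14 without wild-type replicate 1 (unadjusted p = 0.0461, adjusted p = 0.362 with limma) and -0.049 with the median of the probe sets. Ntn4, a netrin of basement membranes, differed by 0.058 (SE 0.054) and Ntn3 by 0.027 (SE 0.084). Over all 30 members outside the 7, 15 were higher and 15 lower, with differences between -0.18 and 0.17 and adjusted p of 0.669 or more. The 7 were set apart by these same values, so small differences among the 30 follow in part from that choice. The 95% interval lay within 0.25 of 0 for 19 of these 30, so a change of that size in either direction was outside the interval for them, whereas for the other 11 it was not.

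Ephb3, Epha3, Robo1 and Robo2, the 4 largest differences among the members, all lie on chromosome 16 in the RefSeq gene table (GRCm38.p6), where Robo1 and Robo2 are next to each other among the measured genes. The chromosome carries 5 of the 37 members, and the remaining member, Epha6, differed by 0.0038. The chromosome was looked at after these differences were seen, and no cause was tested. Of the 650 measured genes of chromosome 16, 30 (4.62%) had groups that did not overlap, against 5.94% of all genes. Among these 650 genes 1 was called, Ephb3 itself. The groups overlapped for the measured neighbours on either side, with Gbe1 at 0.050 (SE 0.091) before Robo1, Lipi at -0.015 (SE 0.069) and Rbm11 at 0.23 (SE 0.14) after Robo2, Teddm3 at -0.20 (SE 0.13) and Magef1 at -0.063 (SE 0.057) beside Ephb3, and Pros1 at 0.062 (SE 0.074) and Csnka2ip at -0.047 (SE 0.063) beside Epha3.

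Probe set by probe set, 0 of the 678 passed an adjusted p of 0.05 with limma over all 241576 probe sets, of which 1 was called (0.000414%), and 84 had an unadjusted p under 0.05 (12.4%, against 6.80% of all probe sets). Groups did not overlap for 49 (7.23%, against 4.30% of all probe sets), 39 higher and 10 lower, where 2.39% of all probe sets were higher and 1.91% lower in this way. Robo1 and Robo2 held 22 of the 49. The 30 members outside the 7 held 12 in 535 probe sets, or 2.24%. The 7 were set apart by their gene values on these same arrays, so a low share among the 30 follows in part from that choice. Among these was probe set 10592305 of Robo3, which differed by -1.37 (SE 0.32), with 3.69, 3.87, 5.03 and 4.85 in Cic-L-null against 5.55, 5.84, 6.06 and 5.49 in wild-type, all of them below the dim limit. In Slit1, 2 probe sets were lower and 1 higher without overlap, and the 37 together gave a gene difference near 0. Probe sets of 1 gene share each animal's RNA and are not replicates.

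A limit for dim genes of 6.24 was set at the 95th percentile of the wild-type means of 985 olfactory receptor genes, best known from the nasal epithelium. In wild-type cerebellum 35 of the 37 guidance genes (94.6%) lay above it, against 68.3% of all genes. The exceptions were Epha1 at 6.15 ± 0.062 in Cic-L-null and 6.17 ± 0.084 in wild-type, and Robo3 at 6.15 ± 0.18 in Cic-L-null and 6.13 ± 0.20 in wild-type (SD, n = 4 each). Slit1 lay just above the limit, at 6.27 ± 0.071 in Cic-L-null and 6.28 ± 0.15 in wild-type (SD, n = 4 each). The called gene Ephb3 came next in wild-type, at 6.53 ± 0.067 (SD, n = 4). Unc5c, at 9.71 ± 0.041 in wild-type, lay farthest above the limit, and Ephb2, Ntn1, Unc5b, Ephb1, Ntn4, Epha7 and Robo1 also had wild-type values above 8.5. Values of different genes come from probes of different affinity and do not rank the amounts of RNA.

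**Figure D4:**
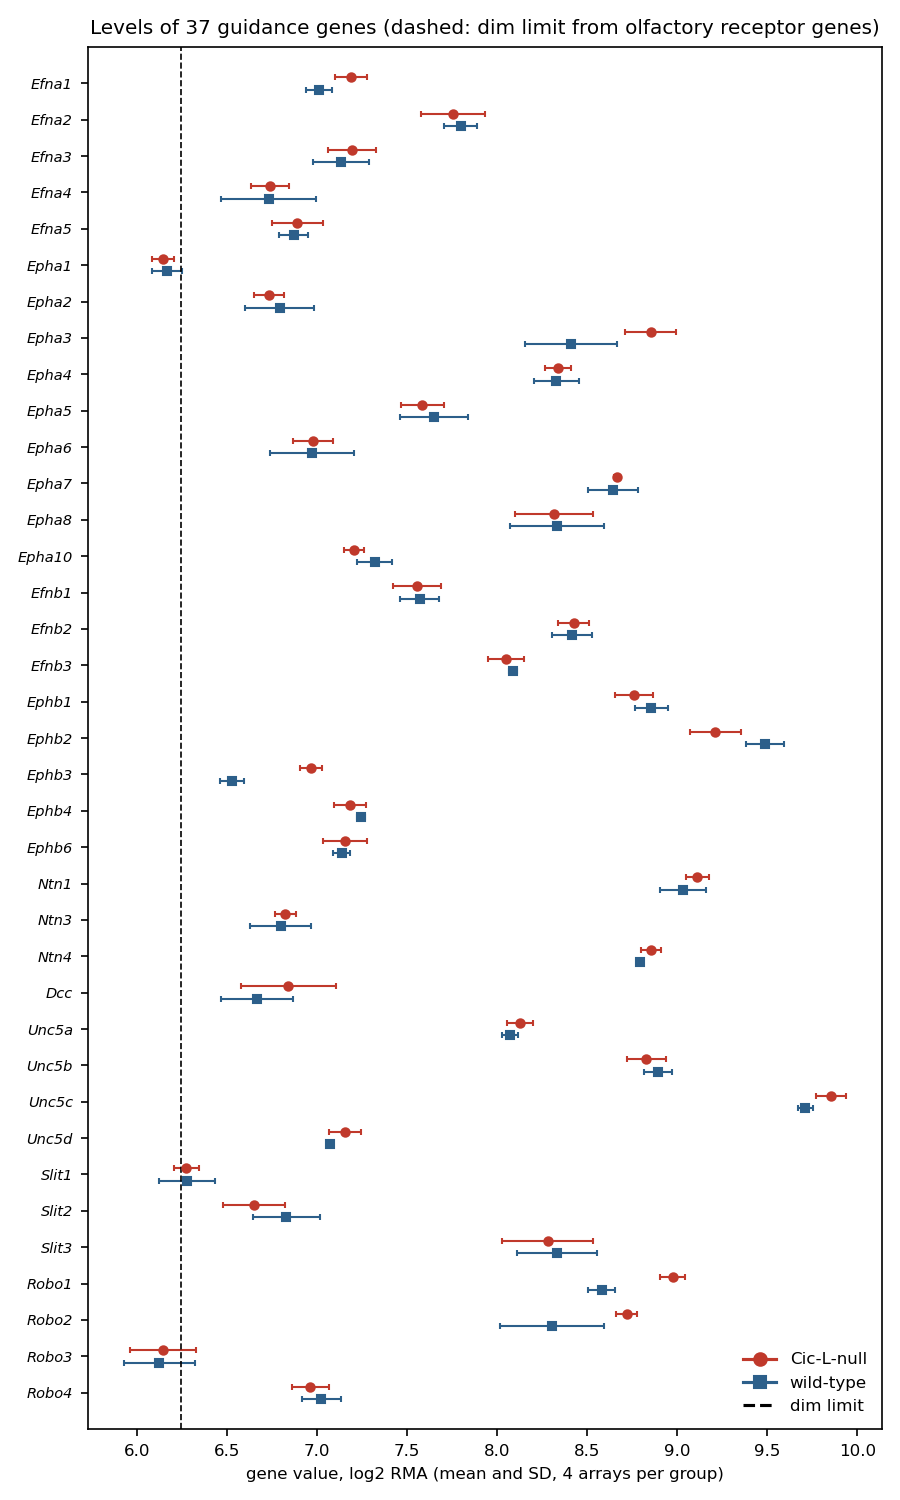
Each row is 1 guidance gene, with its gene value (log2 RMA, mean and SD of 4 arrays) in Cic-L-null as a red circle above and in wild-type as a blue square below, and a dashed line at the dim limit of 6.24. Epha1 and Robo3 lie at or left of the line. The mean symbols of Epha3, Ephb2, Ephb3, Robo1 and Robo2 stand apart. Single arrays of Epha3 still overlapped between the groups, and those of Ephb2 nearly met.

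The wider pathway gave no called gene. In a list of 36 effectors of guidance receptors, such as adaptors, kinases and cytoskeletal proteins, 34 were measured. Of these, 25 (73.5%, against 47.0% of all genes) were above 0, and the median difference was 0.037, against -0.0071 over all genes. With limma 0 were called and 3 had an unadjusted p under 0.05, all higher, which at 8.82% was near the 9.26% of all genes. Groups did not overlap for 2 (5.88%, against 5.94% of all genes). The first was Kalrn, which acts with EphB receptors at dendritic spines, with 8.004, 7.902, 7.924 and 7.947 in Cic-L-null against 7.769, 7.734, 7.655 and 7.692 in wild-type (0.23, SE 0.055, adjusted p = 0.174). The other was Srgap2, of the Robo-binding GTPase activators, with 10.52, 10.52, 10.50 and 10.67 in Cic-L-null against 10.48, 10.27, 10.31 and 10.20 in wild-type (0.24, SE 0.073, adjusted p = 0.309). In a list of other ligands and coreceptors, 19 were measured, 0 were called, and 11 were above and 8 below 0. At an unadjusted limma p under 0.05, 2 were higher and 1 lower (15.8%, against 9.26% of all genes). Groups did not overlap for 1 higher and 1 lower gene (10.5%, against 5.94% of all genes). The lower was Ntng1, a lipid-anchored netrin-G that does not bind Dcc, which differed by -0.30 (SE 0.095, adjusted p = 0.323 with limma). Reln, listed there as a further secreted cue, differed by 0.32 (SE 0.064, adjusted p = 0.0964), and its groups did not overlap either.

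Markers of some cell types lay lower in the Cic-L-null arrays beside these genes. All 7 measured markers of mature oligodendrocytes were lower, where 10795 of all 20352 genes were lower, though Mog was nearly level at -0.0044 (SE 0.070). Groups did not overlap for 4 of the 7, where 2.91% of all genes were lower in this way. At an unadjusted limma p under 0.05, 2 of the 7 were lower, against 4.70% of all genes. The mean level of the 7 ranged over 10.07 to 10.19 in the Cic-L-null arrays and over 10.24 to 10.34 in the wild-type arrays. Of 8 Bergmann glia and astrocyte markers 7 were lower, with ranges of 9.98 to 10.05 in Cic-L-null and 10.14 to 10.29 in wild-type. That separation rested on Fabp7, a lipid-binding protein of radial and Bergmann glia and the 1 called gene of the list, with 9.44, 9.23, 9.29 and 8.93 in Cic-L-null against 10.43, 10.34, 10.07 and 10.72 in wild-type (limma adjusted p = 0.0180). Without Fabp7, a setting added after its values were seen, the ranges overlapped at 10.10 to 10.17 in Cic-L-null and 10.15 to 10.25 in wild-type, and the other 7 differences lay between -0.33 and 0.098. Endothelial and pericyte markers, of interest for Robo4, Unc5b, Ephb4, Efnb2 and Efna1, were lower in 8 of 10, with overlapping ranges of 8.04 to 8.23 in Cic-L-null and 8.11 to 8.31 in wild-type. Ranges also overlapped for granule cells (11.75 to 11.78 in Cic-L-null and 11.69 to 11.81 in wild-type), Purkinje cells (11.06 to 11.12 in Cic-L-null and 10.98 to 11.21 in wild-type) and molecular layer and Golgi interneurons (9.13 to 9.25 in Cic-L-null and 9.08 to 9.18 in wild-type). They overlapped as well for oligodendrocyte precursors (8.05 to 8.23 in Cic-L-null and 7.98 to 8.19 in wild-type), meningeal fibroblasts (7.96 to 8.10 in Cic-L-null and 7.92 to 8.10 in wild-type), choroid plexus (7.35 to 8.51 in Cic-L-null and 7.98 to 8.41 in wild-type) and microglia (6.91 to 7.03 in Cic-L-null and 6.97 to 7.07 in wild-type). The brainstem and forebrain list overlapped too, at 6.13 to 6.27 in Cic-L-null and 6.14 to 6.27 in wild-type. Its 7 measured genes differed in both directions, with 3 higher and 4 lower. At an unadjusted limma p under 0.05, 2 were higher and 2 lower, where the shares of all genes were 4.56% and 4.70%. Groups did not overlap for 2 genes, both higher, where 3.02% of all genes were higher in this way. Markers below the dim limit in wild-type were Kcnj8 of pericytes, Lum of meningeal fibroblasts, P2ry12, Aif1 and Fcrls of microglia, and Tph2, Hoxa5, Slc6a4 and Neurod6 of the brainstem and forebrain. The part of cell composition in the differences of the guidance genes was not tested.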

How the data were processed

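The deposited table holds log2 RMA values, which the authors made in Affymetrix Power Tools from Affymetrix Mouse Gene 1.0 ST arrays, per the submitters' processing notes and the series' design text. The sources used here do not give the versions, the library files or a build. Array medians lay between 7.82 and 7.88, and 0 values were missing. Of 241576 probe sets, 212097 carried 1 symbol in the platform annotation, which is old, and entered 20352 genes as mean log2 values, with 2742 symbols updated through GRCm38.p6 synonyms and 37 member symbols unchanged.

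Gene values and probe sets were each compared in R 4.3.3 by the moderated test of limma 3.58.1 (eBayes after lmFit, two-sided, group as the only term, no filter on dim values, Benjamini-Hochberg over all features, threshold 0.05). An exact permutation test over the 8 arrays was run beside it. The procedure was tested on simulated data, where it recovered 73.1% of changes of 0.5 log2 and 98.1% of changes of 1. Changes smaller than 0.5 were not simulated, and the largest member difference was 0.44. Alternatives changed the gene summary, the filter on dim values, the array scaling, the variance model, the covariates and the arrays left out. The 4 arrays a group limit the precision. Groups and replicate numbers came from the titles. The labels describe separate animals.

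The members and the effector, ligand and marker lists were chosen with earlier results of these data known. All 37 members are named. Values by array are given for members with an unadjusted p under 0.05 or groups that did not overlap, for the member of each family with the highest wild-type mean, and for Epha4, Robo4, Slit2 and Dcc, which were chosen after their values were seen. From the effector and ligand lists, genes whose groups did not overlap are named. Chromosome 16 and the neighbours of its members were looked at after the differences were seen. Marker lists are given by counts and ranges, with Gabra6 and Calb1 named as examples. Pcp2, Slc17a7, Mog, the called marker and those below the dim limit were named after their values were seen. Same-numbered arrays were not treated as pairs in the main test. Their deviations from the group means correlated at 0.22, 3e-04, 0.21 and 0.026. Cic-L-null replicates 1 and 3 correlated best with the wild-type array of their own number, and replicates 2 and 4 did not.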

Additional observations from a re-analysis of the deposited data

Results flagged for a closer look

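In 4 of the 76 groups of 4 arrays examined (37 members and Cic, each genotype), 1 array stood apart from the others by Dixon's test at the 95% level, which chance flags in about 1 of 20 groups. Efna1 lay at 7.32 in Cic-L-null replicate 2, where the nearest array of that genotype lay at 7.15. Without this array the difference of Efna1 was 0.13 with an unadjusted limma p of 0.0623. Robo1 lay at 8.70 in wild-type replicate 1, the nearest at 8.55, on the side of the Cic-L-null arrays. Efna3 lay at 6.90 in wild-type replicate 3, the nearest at 7.20, and Epha1 lay at 6.29 in wild-type replicate 2, the nearest at 6.13. No explanation was tested.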

How the results depend on the processing

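Genes called numbered 28 as reported, 2 when probe sets were summarised by their median, 69 with only genes above the dim limit, 130 with a trended and robust variance, 54 with array weights, 18 with a covariate of Y-linked genes, 96 at an adjusted p of 0.1, and 0 to 37 when 1 array was left out. The number of guidance genes called, 1, was 0 with that median and with only probe sets above the dim limit, and 2 with only genes above the limit, centred arrays, renewed quantile normalization, a trended and robust variance, array weights and an adjusted p of 0.1. It was 0 to 2 when 1 array was left out. The difference of Ephb3 lay between 0.40 and 0.53 in all 18 settings and its call was lost in 9 of them. Epha3, Ephb2 and Robo2 were called in none of the 18 and kept an unadjusted p under 0.05 in all of them, Efna1 in 14 and Unc5c in 11. The difference of Cic was -1.32 to -1.11 when 1 array was left out, and its adjusted p was 0.0589 without Cic-L-null replicate 2. With the olfactory median as the limit, 37 members lay above it instead of 35.

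With the replicate number as a block, 0 genes and 0 guidance genes were called. Cic then differed by -1.25 with an adjusted p of 0.0564, and Ephb3 by 0.44 with an adjusted p of 0.0824. Of the Cic-L-null arrays, 2 of 4 correlated best with their own number. The cause was not tested.

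Signs turned in 82 of 664 recomputed differences, in 21 members whose reported difference was 0.0792 or less in size. With the median of the probe sets these were Efna3 at -0.067, Efna4 at -0.01, Efnb2 at -0.15, Epha2 at 0.10, Epha4 at -0.064, Epha6 at -0.061, Epha8 at 0.047, Ephb6 at -0.11, Ntn1 at -0.049, Slit1 at 0.063 and Unc5b at 0.0068. With probe sets above the limit they were Efna4 at -0.0015, Epha1 at 0.13, Epha2 at 0.029 and Slit1 at 0.17, and after renewed quantile normalization Slit1 at 0.004. With array weights they were Efna4 at -0.021, Efna5 at -0.0018, Efnb1 at 0.0197, Epha7 at -0.0101, Ntn3 at -0.043 and Robo3 at -0.054. With the Y-linked covariate they were Efnb2 at -0.017, Epha4 at -0.0087, Epha6 at -0.0085, Slit1 at 0.017 and Slit3 at 0.0013. Without each member's probe set of the largest difference, a setting chosen after seeing the data, they were Efna2 at 0.0057, Efna4 at -0.10, Efnb3 at 0.012, Epha1 at 0.046, Epha6 at -0.039, Epha8 at 0.0058, Ephb6 at -0.023 and Slit1 at 0.0302. With 1 array left out, the ranges were -0.1173 to 0.0086 for Efna2, -0.0153 to 0.1105 for Efna3, -0.1083 to 0.0933 for Efna4, -0.029 to 0.0785 for Efna5, -0.0682 to 0.0385 for Efnb1, -0.0393 to 0.0473 for Efnb2, -0.0699 to 0.0089 for Efnb3, -0.0391 to 0.0231 for Epha1, -0.1113 to 0.0261 for Epha2, -0.0284 to 0.0587 for Epha4, -0.1221 to 0.0247 for Epha5, -0.0565 to 0.1106 for Epha6, -0.0386 to 0.0718 for Epha7, -0.1324 to 0.0732 for Epha8, -0.0237 to 0.0734 for Ephb6, -0.0322 to 0.0849 for Ntn3, -0.0692 to 0.0996 for Robo3, -0.0787 to 0.0364 for Slit1 and -0.1725 to 0.0394 for Slit3. With 4 arrays a group, and for Epha1, Robo3 and Slit1 a signal near the dim limit, small differences could not be resolved.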

Other observations

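Cic-L-null replicate 4 held the lowest of the 8 values for 9 and wild-type replicate 3 for 12 of the 37 guidance genes, the next being wild-type replicate 1 with 5. The median deviation of the members from their own means was -0.060 on Cic-L-null replicate 4 and -0.057 on wild-type replicate 3, against -0.014 and 0.0024 over all genes. Cic-L-null replicate 2 held the lowest value for 0 members and the highest for 8. The arrays of either genotype therefore lay on both sides of the mean.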
